A study of Mus musculus with 12 samples.

Results

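TRAJ18 and TRAJ33 are joining (J) genes of the mouse T cell receptor alpha locus that are best known from invariant T cells. They are described here in the T cells that did not pair them with the invariant V gene. The chains were the productive alpha chains (TRA) of called cells that used TRAJ18 or TRAJ33, with each V gene and CDR3 nucleotide sequence counted once per library as 1 rearrangement. TRAV11-TRAJ18 and TRAV1-TRAJ33 chains were set apart as invariant, and no chain used TRAV11D, the duplicate of TRAV11. This left 253 TRAJ18 and 158 TRAJ33 rearrangements, 411 of 9383 distinct productive TRA rearrangements. They lay in 473 of the 8974 cells with a productive TRA. The invariant chains were 13 TRAJ18 and 6 TRAJ33 rearrangements, so by distinct rearrangements both J genes were used almost entirely outside the invariant chains. By cells the order turned for TRAJ18 in library CTX2, with 12 cells of TRAV11-TRAJ18 and 9 of TRAJ18 outside it.

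The cells were CD45+ leukocytes from mammary tumours of Balb/c mice. The labelled treatment ran for 3 weeks and combined cyclophosphamide, an alkylating drug, with pexidartinib, an inhibitor of the CSF1 receptor of macrophages. The series has 4 treated and 4 untreated expression samples and 4 receptor samples, and the receptor table covers 6 libraries that could be tied to them. Combined, CTX and CTX2 are treated receptor replicates 3, 1 and 4. CSF1R is tied to the treated expression group, through a number shared by the titles of treated expression replicates 1 and 2, and PBS1 to untreated expression replicate 3. The labels of PBS2 disagree, since its receptor sample is marked treated and the expression sample paired with it untreated, so it enters no comparison of treatment. What the library names stand for is not defined, and the labels do not say how many mice or tumours stand behind a library or which tumour model was used.

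A TRA chain is made by joining a TRAV gene to a TRAJ gene, with bases trimmed and added at the joint, and the joint lies inside CDR3, the loop that faces the antigen. In natural killer T (NKT) cells TRAV11 is joined to TRAJ18 and the receptor reads lipids on CD1d. In mucosal-associated invariant T (MAIT) cells TRAV1 is joined to TRAJ33 and the receptor reads vitamin B metabolites on MR1. In conventional T cells the same J genes can join any TRAV gene, and the resulting receptors read peptides on MHC molecules. In mouse assembly GRCm38.p6, TRAJ18 lies at chr14:54200777-54200842 and is the 44th of 60 TRAJ genes in locus order. TRAJ33 lies upstream of it at chr14:54185358-54185414 and is the 29th. The V genes lie upstream of both, with TRAV1 (chr14:52427967-52428876) the 1st of 130 TRAV genes and thus the farthest from the J genes, and TRAV11 (chr14:53519303-53519859) the 94th.

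The nucleotide sequence of CDR3 shows how much of each J gene a chain kept. The invariant chains are shown first as the point of comparison, then the shortest and the longest chain of each J gene outside them. Capitals mark the bases at the 3′ end that match the J end shared by that gene's chains in these libraries. Lower case marks the rest, from the V gene, the joint or any J base ahead of the shared end. A base added at the joint can match by chance, so within the shared end the capitals are an upper limit of the bases kept.
TRAV11-TRAJ18, invariant: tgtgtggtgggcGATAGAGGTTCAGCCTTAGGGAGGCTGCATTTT
TRAV4N-4-TRAJ18, shortest: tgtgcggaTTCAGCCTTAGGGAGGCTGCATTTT
TRAV9D-1-TRAJ18, longest: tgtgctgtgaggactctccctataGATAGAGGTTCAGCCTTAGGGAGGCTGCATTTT
TRAV1-TRAJ33, invariant: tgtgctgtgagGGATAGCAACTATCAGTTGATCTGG
TRAV7-3-TRAJ33, shortest: tGCAACTATCAGTTGATCTGG
TRAV6-6-TRAJ33, longest: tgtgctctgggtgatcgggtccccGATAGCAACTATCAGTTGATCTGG

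The chains that turned up in many cells or in several libraries are shown next, because the results on clone size and recurrence rest on them. The same marking is used.
PBS1, TRAV9N-4-TRAJ18, 12 cells: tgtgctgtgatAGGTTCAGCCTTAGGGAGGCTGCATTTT
Combined, TRAV6-6-TRAJ18, 4 cells: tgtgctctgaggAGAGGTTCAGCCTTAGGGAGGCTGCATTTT
CSF1R, TRAV6-7-DV9-TRAJ18, 3 cells: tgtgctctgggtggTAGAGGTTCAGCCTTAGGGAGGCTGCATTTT
Combined, CTX and CSF1R, TRAV8D-1-TRAJ18, 6 cells: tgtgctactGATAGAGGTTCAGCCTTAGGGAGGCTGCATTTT
CTX2, TRAV9D-1-TRAJ33, 19 cells: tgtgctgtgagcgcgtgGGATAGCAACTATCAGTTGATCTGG
CTX2, TRAV15-1-DV6-1-TRAJ33, 10 cells: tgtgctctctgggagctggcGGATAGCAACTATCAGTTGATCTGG
PBS1, TRAV6-6-TRAJ33, 9 cells: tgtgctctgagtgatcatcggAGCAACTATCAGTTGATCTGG

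The libraries were unequal in size. Combined held 309 of the 411 rearrangements, CSF1R 36, CTX2 23, CTX 22, PBS2 14 and PBS1 7. The 6 libraries held 11518 called cells, 311634692 reads and 213458 unique molecular identifiers (UMIs, tags that count captured molecules). The chains described here had a median of 4 UMIs, with library medians of 3 to 5.5, and all TRA chains had library medians of 3 to 6. Cell barcodes called in 2 libraries numbered 50 of 11468, and 3 of the chains lay in such cells, none under the same barcode in both libraries. Cells with these chains held no contig of an immunoglobulin, gamma or delta chain, and all called cells held only 12. With so few in libraries enriched for T cell receptors, the absence says little about lineage. Intervals beside percentages are 95% Clopper-Pearson intervals and reflect counting error alone.

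TRAJ18 was a J gene of middling use outside invariant chains, and TRAJ33 was a lower one. TRAJ18 made up 2.73% (192 of 7040 rearrangements, interval 2.36 to 3.13) in Combined, 3.82% (16 of 419, 2.20 to 6.13) in CTX and 1.54% (8 of 518, 0.669 to 3.02) in CTX2. It made up 2.80% (24 of 857, 1.80 to 4.14) in CSF1R, 1.98% (8 of 404, 0.859 to 3.86) in PBS2 and 3.45% (5 of 145, 1.13 to 7.86) in PBS1. CTX and PBS1 were highest and CTX2 lowest, with intervals that overlapped. The mean was 2.72% ± 0.857 (SD, n = 6 libraries), the 20th of 43 TRAJ genes, between TRAJ43 at 2.79% and TRAJ39 at 2.70%, differences well inside the spread.

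TRAJ33 made up 1.66% (117 rearrangements, interval 1.38 to 1.99) in Combined, 1.43% (6, 0.527 to 3.09) in CTX and 2.90% (15, 1.63 to 4.73) in CTX2. It made up 1.40% (12, 0.726 to 2.43) in CSF1R, 1.49% (6, 0.547 to 3.20) in PBS2 and 1.38% (2, 0.167 to 4.89) in PBS1. CTX2 stood above the other libraries, which lay close together, and its interval overlapped each of theirs. The mean was 1.71% ± 0.590 (SD, n = 6), the 28th of 43, between TRAJ17 at 1.72% and TRAJ47 at 1.67%, again well inside the spread. The TRAJ18 share exceeded the TRAJ33 share in 5 of 6 libraries, all but CTX2. The most used gene, TRAJ52, had 5.02% ± 0.515.

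**Figure D1:**
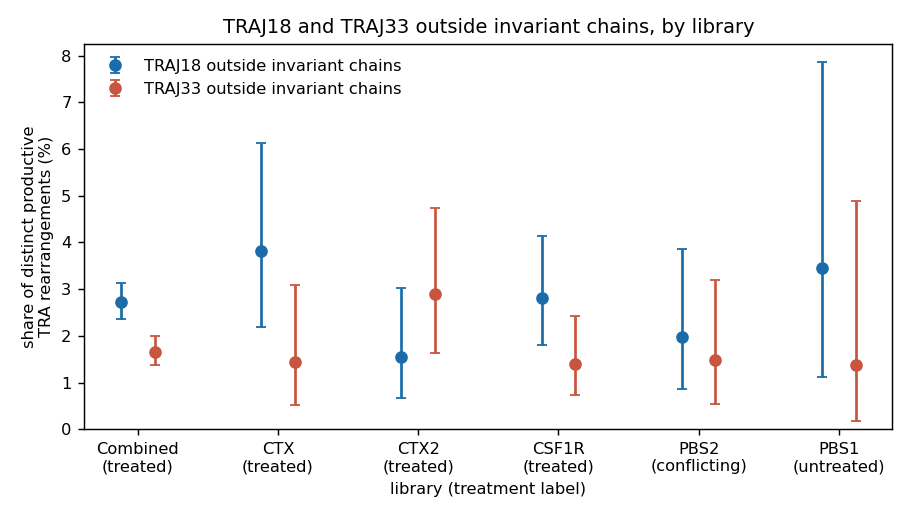
Share of distinct productive TRA rearrangements (%, y axis) that used TRAJ18 or TRAJ33 outside invariant chains, by library (x axis), with exact 95% intervals for counting error. TRAJ18 lies above TRAJ33 in every library except CTX2, where TRAJ33 reaches 2.90%.

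Neighbours in the locus had other mean levels. The nearest J genes with productive chains around TRAJ18 were TRAJ21 upstream, at 1.29% ± 0.819, and TRAJ17 downstream, at 1.72% ± 0.417 (SD, n = 6 each). Around TRAJ33, TRAJ34 upstream had 2.83% ± 0.270 and TRAJ32 downstream had 3.26% ± 0.389. TRAJ18 thus had a higher mean than both of its neighbours and TRAJ33 a lower mean than both of its own, a description that was not tested.

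Counted as distinct rearrangements, the invariant chains were rarer in each library than the same J gene outside them. TRAV11-TRAJ18 made up 0.0568% of rearrangements in Combined, 0.477% in CTX, 0.965% in CTX2, 0.248% in PBS2 and 0.690% in PBS1, and none of 857 in CSF1R, which allows up to 0.350%. TRAV1-TRAJ33 made up 0.0284% in Combined, 0.239% in CTX, 0.193% in CTX2, 0.117% in CSF1R and 0.690% in PBS1, and none of 404 in PBS2, which allows up to 0.743%. CTX2 and PBS1 were the highest for TRAV11-TRAJ18, and each value rests on 5 or fewer rearrangements. Counted as cells, TRAJ18 outside TRAV11 was found in 9 cells of CTX2 and TRAV11-TRAJ18 in 12, so the order turned there, and over all libraries in 276 and 23 cells. TRAJ33 outside TRAV1 was found in 197 cells and TRAV1-TRAJ33 in 8.

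Treatment could be compared only with PBS1 as the single untreated library. TRAJ18 averaged 2.72% ± 0.930 in the 4 treated libraries (SD) and had 3.45% in PBS1, a difference of -0.73 percentage points (exact permutation test, two-sided, p = 0.6, adjusted over the 2 genes 0.6). TRAJ33 averaged 1.85% ± 0.709 in the treated libraries and had 1.38% in PBS1, a difference of 0.47 points (exact permutation test, p = 0.4, adjusted 0.6). PBS1 lay within the treated range for TRAJ18 and just below it for TRAJ33. With 1 untreated library the smallest p this test can give is 0.2, so no difference between treated and untreated tumours could be called. Combined and CTX2, the libraries whose numbers carry the prefix JR, were both treated, so that within the other numbers CTX and CSF1R stand against PBS1 alone.

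Fewer of the chains outside the invariant pairs kept the whole shared J end than of the invariant chains themselves. Aligned at their 3′ end, TRAJ18 chains shared 33 bases and TRAJ33 chains 25 before the most frequent next base dropped below 50%. The whole end means these bases, and the J gene may reach further. Of the 57 chains of each gene that matched it, the commonest next base was found in 17 with TRAJ18 and 25 with TRAJ33. Outside invariant chains TRAJ18 kept a median of 30 of these bases (range 20 to 33), and the whole end was kept by 57 of 253 (22.5%, interval 17.5 to 28.2), against 11 of 13 invariant chains. TRAJ33 kept a median of 24 (range 16 to 25), and 57 of 158 kept the whole end (36.1%, interval 28.6 to 44.1), against 5 of 6 invariant chains.

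By library, the whole TRAJ18 end was kept by 25.0% of chains in Combined (48 of 192), 31.3% in CTX, 25.0% in CTX2 and 8.33% in CSF1R (2 of 24), and by none of the 8 in PBS2 or the 5 in PBS1. The whole TRAJ33 end was kept by 33.3% in Combined (39 of 117), 33.3% in CTX, 40.0% in CTX2, 75.0% in CSF1R (9 of 12) and 16.7% in PBS2, and by neither of the 2 in PBS1. CSF1R was thus low for TRAJ18 and high for TRAJ33, on 24 and 12 chains, a contrast noticed in the values and not tested. In the sequences above, the TRAV8D-1 chain kept the whole TRAJ18 end, and the PBS1 TRAV6-6 chain kept 21 bases of TRAJ33.

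**Figure D2:**
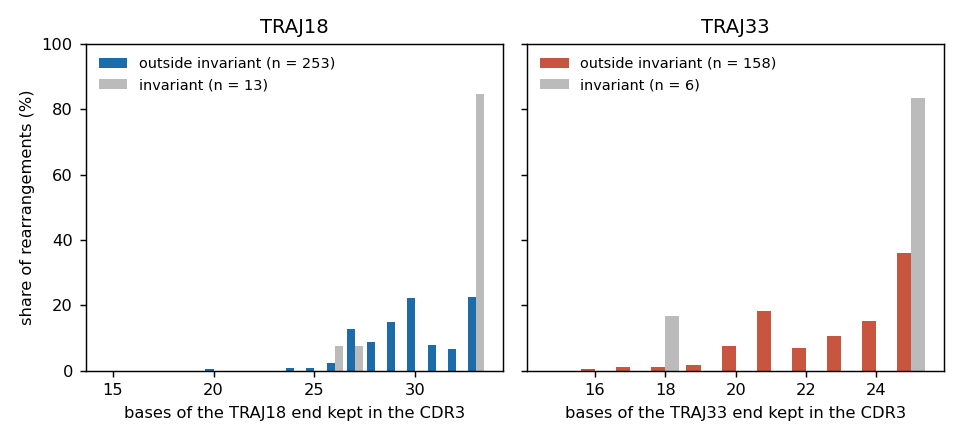
Share of rearrangements (%, y axis) by the number of 3′ bases that match the shared J end (x axis, bases), for TRAJ18 (left) and TRAJ33 (right), with chains outside the invariant pairs in colour and invariant chains in grey. The whole end of 33 or 25 bases was matched by 22.5% of TRAJ18 and 36.1% of TRAJ33 chains outside the invariant pairs, against 11 of 13 and 5 of 6 invariant chains.

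No chain outside the invariant V genes carried the invariant CDR3. The most frequent TRAV11-TRAJ18 residue sequence was written in 4 nucleotide forms by 10 of the 13 invariant rearrangements, and 0 of the 253 other TRAJ18 chains encoded it. The most frequent TRAV1-TRAJ33 residue sequence had 1 nucleotide form in 4 of 6 rearrangements, and 0 of 158 other TRAJ33 chains encoded it. The first bases of CDR3 come from the V gene, and these chains were set apart by V gene. A match was thus made less likely in advance, and the counts of 0 say little about the joints. Of the invariant V genes, TRAV1 was also found with the other J gene and TRAV11 was not. TRAV1 was joined to TRAJ18 in 4 of its 82 rearrangements, which is 1.58% of the TRAJ18 chains, against 72 or 0.804% of other TRA chains that used TRAV1. TRAV11 was joined to TRAJ33 in 0 of 43, where the pooled share of TRAJ33 outside TRAV1 was 1.68%.

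TRAJ18 gave longer and TRAJ33 shorter CDR3 loops on average than the other TRA chains, though only the difference for TRAJ18 was called. TRAJ18 chains averaged 14.7 residues in Combined, 14.5 in CTX, 14.4 in CTX2, 14.6 in CSF1R, 14.3 in PBS2 and 14.4 in PBS1, against 13.5 to 13.8 for other TRA chains across the libraries. Every library had longer loops with TRAJ18, and the means with TRAJ18 did not overlap those of other TRA. The mean difference was 0.826 residues ± 0.231 (SD of the 6 within-library differences, 6 of 6 higher; two-sided exact sign-flip permutation test, p = 0.03125, the smallest 6 libraries can give; adjusted over 38 TRAJ genes by Benjamini-Hochberg, 0.0440). A move in the same direction in all libraries was common among J genes: 71.1% of the 38 tested met it, 39.5% with longer and 31.6% with shorter loops, so TRAJ18 is not set apart by it. The difference was 0.769 residues in the libraries without the JR prefix and 0.941 in those with it. With each cell counted in place of each rearrangement it was 0.720 and the call was lost (exact sign-flip permutation test, p = 0.0625).

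TRAJ33 chains averaged 12.3 residues in Combined, 13.8 in CTX, 12.4 in CTX2, 12.8 in CSF1R, 12.5 in PBS2 and 14 in PBS1, against 13.6 to 13.8 for other TRA chains. The loops were shorter in 4 of 6 libraries, and CTX and PBS1, with 6 and 2 chains, lay slightly above the rest of their own repertoire. The mean difference was -0.707 residues ± 0.691 (SD, n = 6; exact sign-flip permutation test, p = 0.125, adjusted 0.144) and was not called. It was -0.402 in the libraries without the JR prefix and -1.32 in those with it.

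Between the J genes, TRAJ18 loops were longer than TRAJ33 loops in 6 of 6 libraries, by 1.50 residues ± 0.791 (SD; exact sign-flip permutation test, p = 0.03125, adjusted over the 2 comparisons of these genes 0.0625, which misses 0.05). Counted per cell the difference was 1.05 residues (exact sign-flip permutation test, p = 0.0938). Pooled over libraries the median loop was 15 residues with TRAJ18 (range 11 to 19), 12 with TRAJ33 (range 7 to 16) and 14 in 8953 other TRA rearrangements.

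The commonest loop length of each J gene was the length of its invariant chain. Loops of 15 residues made up 88 of 253 TRAJ18 chains (34.8%, interval 28.9 to 41.0), against 11 of 13 invariant chains, and loops of 14 residues a further 79. Loops of 12 residues made up 55 of 158 TRAJ33 chains (34.8%, interval 27.4 to 42.8), against 6 of 6 invariant chains, and loops of 13 residues a further 45. The remaining loops spread over 1 to 4 residues on either side, apart from the single TRAJ33 chain of 7 residues in Combined, whose CDR3 begins 1 base before the J end.

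**Figure D3:**
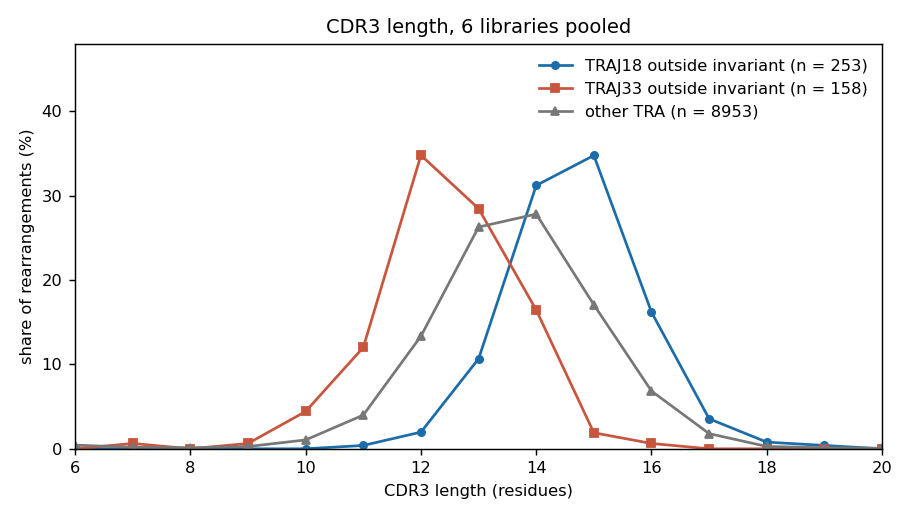
Share of rearrangements (%, y axis) by CDR3 length (residues, x axis) for TRAJ18 and TRAJ33 outside invariant chains and for all other TRA rearrangements, pooled over 6 libraries. TRAJ18 peaks at 15 residues and TRAJ33 at 12, with the other chains between and a median of 14.

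Both J genes joined V genes from across the locus. TRAJ18 met 53 TRAV genes of 18 families and TRAJ33 met 45 of 16 families, where the other chains used 77 genes of 21 families. The 5 commonest TRAJ18 partners were TRAV6-6 with 20 of 253 rearrangements (7.91%, against 5.64% of other TRA), TRAV6-7-DV9 with 15 (5.93%, against 4.14%), TRAV12D-2 with 12 (4.74%, against 3.88%), TRAV13-1 with 11 (4.35%, against 3.22%) and TRAV9D-1 with 10 (3.95%, against 4.64%). The commonest TRAJ33 partners were TRAV13-1, TRAV16N and TRAV7D-2 with 9 of 158 each (5.70%, against 3.22%, 4.20% and 1.98% of other TRA), TRAV4N-4 with 8 (5.06%, against 3.22%) and TRAV12D-2 with 7 (4.43%, against 3.88%). No V gene dominated either J gene, and each of these counts is small. Members of a TRAV family can be near-identical copies in the mouse. In 10 cases 1 TRAJ18 CDR3 nucleotide sequence of a library carried 2 or more TRAV calls, 9 of them in Combined and 2 in the same cell, and no TRAJ33 sequence did. In 8 of the 10 the calls were of the same family. Whether these were separate rearrangements or 1 with differing calls was not tested.

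No shift of the V partner along the locus was called for either gene. Counting TRAV genes from 1, the farthest from the J genes, TRAJ18 partners averaged 64.5 in Combined, 62.9 in CTX, 61.8 in CTX2, 66.0 in CSF1R, 72.8 in PBS2 and 71.6 in PBS1. The 4 treated libraries lay below the other 2, while other TRA chains averaged 65.6 to 67.3 across the libraries. The mean difference from other TRA was 0.248 positions ± 4.38 (SD, n = 6), with the 6 libraries split into 2 higher and 4 lower (exact sign-flip permutation test, p = 0.875, adjusted over 38 genes 0.938). Of the TRAJ genes 13.2% were called, 7.89% higher and 5.26% lower. It was 1.67 in the libraries without the JR prefix and -2.59 in those with it, and it turned to -1.33 without possible doublets, -0.869 without PBS2 and -0.832 without PBS1.

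TRAJ33 partners averaged 63.4 in Combined, 83.7 in CTX, 77.5 in CTX2, 78.2 in CSF1R, 44.8 in PBS2 and 84.0 in PBS1. PBS2 was low and PBS1 and CTX high, on 6, 2 and 6 chains, and the spread across libraries was wide. The difference from other TRA was 5.71 positions ± 15.7 (SD, n = 6; 4 of 6 higher; exact sign-flip permutation test, p = 0.406, adjusted 0.702), with 6.08 and 4.96 in the libraries without and with the JR prefix. TRAJ18 and TRAJ33 partners differed by -5.36 positions ± 17.8 (SD, n = 6; exact sign-flip permutation test, p = 0.5).

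**Figure D4:**
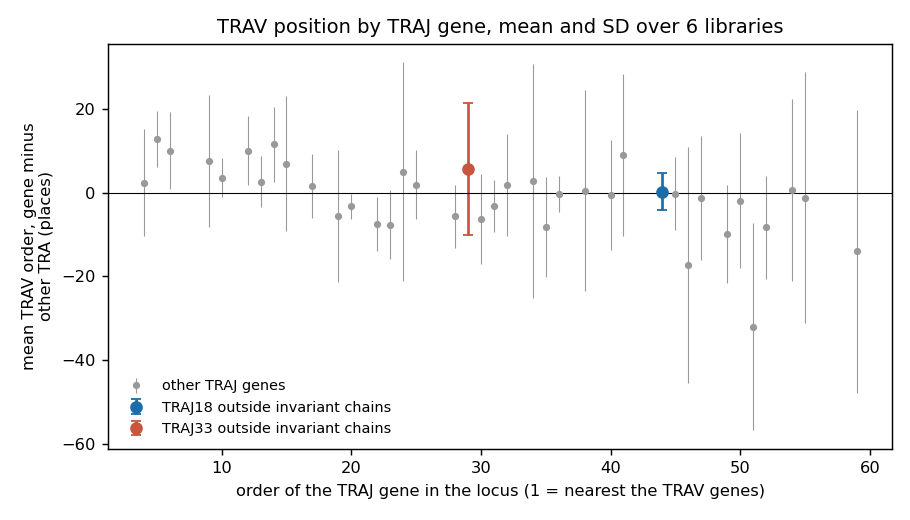
Mean place of the TRAV partner along the locus, each TRAJ gene minus other TRA (places, y axis; mean and SD over 6 libraries), against the order of the TRAJ gene in the locus (x axis, 1 is nearest the TRAV genes), for the 38 genes found in all libraries. TRAJ18, the 44th, lies at 0.248 ± 4.38 and TRAJ33, the 29th, at 5.71 ± 15.7, and both bars cross 0.

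The J genes most like TRAJ18 in the use of TRAV families, by the cosine of pooled use over 21 families, were TRAJ26 (0.982), TRAJ13 (0.981) and TRAJ30 (0.981). Those most like TRAJ33 were TRAJ26 (0.983), TRAJ18 itself (0.975) and TRAJ40 (0.974). All J genes share the libraries and the V genes on offer, and the values are a description.

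Productive chains can be set beside nonproductive ones, which encode no receptor chain. The invariant V and J pairs were set apart among productive chains only. Nonproductive chains were counted with any V gene, and those without a CDR3 were told apart by contig length. TRAJ18 outside TRAV11 made up 253 of 9364 productive rearrangements, and TRAJ18 with any V gene 13 of 510 nonproductive ones. The library means were 2.74% and 3.20%. The difference, productive minus nonproductive, was -0.463 points ± 2.67 (SD, n = 6; 3 of 6 higher; exact sign-flip permutation test, p = 0.719, adjusted over 43 TRAJ genes 0.859). TRAJ33 outside TRAV1 made up 158 of 9364 productive rearrangements, and TRAJ33 with any V gene 19 of 510 nonproductive ones, with means of 1.72% and 2.99%. That difference was -1.27 points ± 2.15 (SD, n = 6; lower in 4 of 6; exact sign-flip permutation test, p = 0.219, adjusted 0.376). Of the 43 genes, 20.9% were called. The nonproductive counts by library were 0 to 7 for TRAJ18 and 0 to 13 for TRAJ33, and the exact intervals of their shares in a single library reach as far as 24.9%. The difference for TRAJ18 was above 0 without CTX (0.214) and at 0.00166 without CTX2.

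The beta chains paired with these alpha chains were diverse. Of the 253 TRAJ18 rearrangements 235 had a beta chain (TRB), with 232 distinct TRB rearrangements from 15 TRBV genes. Of the 158 TRAJ33 rearrangements 143 had one, with 143 distinct TRB from 16 TRBV genes. Of the rearrangements, 241 with TRAJ18 and 151 with TRAJ33 were seen in a single cell. For such chains a number of distinct TRB close to the number of alpha chains is nearly given in advance. No such number for other TRA stands beside it, so the counts do not set either J gene apart.

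The commonest TRAJ18 partners were TRBV20 with 32 of 235 (13.6%, interval 9.50 to 18.7, against 7.17% for other TRA), TRBV13-2 with 29 (12.3%, against 14.1%), TRBV13-1 with 28 (11.9%, against 11.0%), TRBV19 with 25 (10.6%, against 10.3%) and TRBV4 with 21 (8.94%, against 6.50%). TRBV20 stood at 15.4% in Combined (28 of 182), 6.67% in CTX (1 of 15), 25.0% in CTX2 (2 of 8) and 4.76% in CSF1R (1 of 21), and at 0 of 5 in PBS2 and 0 of 4 in PBS1. Other TRA chains had 7.69%, 3.49%, 3.11%, 7.97%, 5.72% and 5.65% in the same libraries. Nearly all of the excess was in Combined, and as TRBV20 was singled out after its value was seen, it was given no test.

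The commonest TRAJ33 partners were TRBV13-2 with 22 of 143 (15.4%, against 14.1%), TRBV1 and TRBV13-3 with 16 each (11.2%, against 7.92% and 7.17%), TRBV13-1 with 15 (10.5%, against 11.0%) and TRBV19 with 12 (8.39%, against 10.3%). TRBV20 was found with 10 TRAJ33 chains (6.99%), close to the share in other TRA.

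The TRBV genes usual in invariant T cells were found at shares near those of other TRA. The usual NKT partners TRBV13-1, TRBV13-2, TRBV13-3, TRBV29 and TRBV1 were found with 97 of 235 TRAJ18 chains (41.3%, interval 34.9 to 47.9), against 44.5% for other TRA and 9 of 13 invariant TRAJ18 chains. The usual MAIT partners TRBV13-2, TRBV13-3 and TRBV19 were found with 50 of 143 TRAJ33 chains (35.0%, interval 27.2 to 43.4), against 31.6% for other TRA and 4 of 6 invariant TRAJ33 chains. For both lists the interval held the share of other TRA. TRBJ2 genes made up 55.3% of TRAJ18 partners (interval 48.7 to 61.8) and 60.1% of TRAJ33 partners (interval 51.6 to 68.2), against 63.1% for other TRA, so the TRAJ18 interval lay just below that share. It pools libraries of unequal size, and no test over libraries was run.

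The TRBV13 family was tested within libraries: TRBV13-2 and TRBV13-3 are in both lists and TRBV13-1 is in the NKT list only. It was found with 32.8% of TRAJ18 chains in Combined, 26.7% in CTX, 12.5% in CTX2, 28.6% in CSF1R, 60.0% in PBS2 and 25.0% in PBS1. PBS2 was highest, on 5 chains, and the mean of 30.9% stood against 33.6% for other TRA, a difference of -2.68 points ± 16.5 (SD, n = 6; 2 of 6 higher; exact sign-flip permutation test, p = 0.688, adjusted over 36 genes 0.952; 2.78% of TRAJ genes called). Within the libraries without the JR prefix the difference was 1.73 and within those with it -11.5. With each cell counted it turned to 3.20.

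For TRAJ33 the TRBV13 share was 33.7% in Combined, 66.7% in CTX, 28.6% in CTX2, 36.4% in CSF1R, 66.7% in PBS2 and 2 of 2 chains in PBS1. It was above other TRA in 5 of 6 libraries, but the high values rest on 2 to 6 chains. The mean of 55.3% stood against 33.2%, a difference of 22.1 points ± 29.3 (SD, n = 6; exact sign-flip permutation test, p = 0.125, adjusted 0.675). It was 34.7 in the libraries without the JR prefix and -2.97 in those with it, and pooled over libraries the shares were 37.1% and 32.3%. With each cell counted it was 23.8 points and higher in all libraries (exact sign-flip permutation test, unadjusted p = 0.03125). By rearrangement it was -8.23 in CTX2, where the TRB of TRAJ33 clones of 19 and 10 cells used TRBV13-2. Counting cells gives such clones more weight.

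Most of the chains were seen in a single cell. A rearrangement in 2 or more cells of a library was found for 12 of 253 TRAJ18 chains (4.74%, interval 2.47 to 8.14) and 7 of 158 TRAJ33 chains (4.43%, interval 1.80 to 8.92), against 288 of 8953 other TRA chains (3.22%, interval 2.86 to 3.60). For TRAJ18 the share was 2.60% in Combined, 18.8% in CTX, 12.5% in CTX2, 8.33% in CSF1R, 0 of 8 in PBS2 and 1 of 5 in PBS1. It was above other TRA in 5 of 6 libraries, by a mean of 3.84 points ± 6.03 (SD, n = 6; means 10.4% and 6.52%; exact sign-flip permutation test, p = 0.156, adjusted over 38 genes 0.554; 13.2% of TRAJ genes called). The JR libraries had a difference of 0.390 and the others 5.56. With each cell counted the difference turned to -1.30 points, and without PBS1, with 5 chains, it was 2.35.

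For TRAJ33 the share in 2 or more cells was 0.855% in Combined, 16.7% in CTX, 26.7% in CTX2, 0 of 12 in CSF1R, 0 of 6 in PBS2 and 1 of 2 in PBS1. Only CTX, CTX2 and PBS1 lay above other TRA, and the mean difference was 9.20 points ± 17.3 (SD, n = 6; means 15.7% and 6.50%; exact sign-flip permutation test, p = 0.281, adjusted 0.653). It was 6.80 in the JR libraries and 10.4 in the others. Without PBS1, with 2 chains, it was 2.74.

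Sharing an alpha chain did not always mean sharing a receptor. Of the 19 rearrangements seen in 2 or more cells, 10 did so under the deposited clonotype and 10 when the same TRB was asked for as well. Among those with at least 2 TRB-bearing cells, 6 of 12 TRAJ18 chains had 1 TRB throughout and 6 had a different TRB in every cell. Of 5 TRAJ33 chains 3 had 1 TRB and 1 had a different TRB in every cell, while of 264 other TRA chains 36.4% had 1 TRB and 54.2% had a different TRB in every cell. In Combined all 5 TRAJ18 chains of this kind had a different TRB in every cell, as had 128 of 139 other TRA chains there.

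The largest TRAJ18 clone was the TRAV9N-4 chain of PBS1. It was found in 12 cells with 3 to 20 UMIs, all with the same TRBV13-2-TRBJ1-4 chain, and every cell with that TRB carried it. It made up 12 of the 16 TRAJ18 cell-chains of PBS1. In CSF1R the TRAV6-7-DV9 chain was found in 3 cells with 1 shared TRBV1-TRBJ2-5 chain. The other TRAJ18 chains with 3 or more cells, TRAV6-6 in 4 cells and TRAV8D-1 in 3 cells of Combined, had 4 and 3 different TRB.

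CTX held 2 TRAJ18 rearrangements whose cells had the same TRB. TRAV4-3 was joined to TRAJ18 with the same residues in nucleotide sequences that differ at 1 base, each in 2 cells, and all 4 cells had the same TRBV13-3-TRBJ2-5 chain. The sequences are shown because of this shared TRB.
CTX, TRAV4-3-TRAJ18, form 1: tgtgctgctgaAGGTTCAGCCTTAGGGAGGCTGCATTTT
CTX, TRAV4-3-TRAJ18, form 2: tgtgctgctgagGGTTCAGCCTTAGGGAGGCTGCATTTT
The cells of form 1 also carried a TRAV9D-1-TRAJ37 chain, and those of form 2 had no second TRA. Whether the forms had a common origin was not tested.

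The largest TRAJ33 clone was the TRAV9D-1 chain of CTX2. It was found in 19 cells with 2 to 19 UMIs, of which 18 had a TRB, all with the same TRBV13-2-TRBJ1-6 chain. That TRB was found in 19 cells, of which 18 had a TRA, all with this chain. In the other large TRAJ33 clones every cell carried another TRA as well. The TRAV6-6 chain of PBS1 was found in 9 cells that all carried TRAV14N-1-TRAJ37 too. Of the 8 with a TRB, 7 had a TRBV13-3-TRBJ2-7 chain that was present in 9 cells of the library, all with the TRAV14N-1-TRAJ37 chain.

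The TRAV15-1-DV6-1 chain of CTX2 was found in 10 cells that all carried TRAV7-1-TRAJ22 as well, and the 6 with a TRB had 1 TRBV13-2-TRBJ2-4 sequence. The residues of that TRB were written in 6 nucleotide forms in CTX2, over 157 cells, and 148 of the 150 with a TRA carried TRAV7-1-TRAJ22. The TRAJ33 chain was found with 1 form, in 6 of its 7 cells, and in none of the cells of the other 5 forms. The 3 forms with the most cells are shown, with capitals marking the bases that differ from the form that carried TRAJ33.
TRB with the TRAJ33 chain, 7 cells: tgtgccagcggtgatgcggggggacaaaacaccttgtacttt
TRB without it, 86 cells: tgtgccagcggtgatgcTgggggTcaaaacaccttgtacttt
TRB without it, 55 cells: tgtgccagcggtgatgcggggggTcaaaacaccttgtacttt

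**Figure D5:**
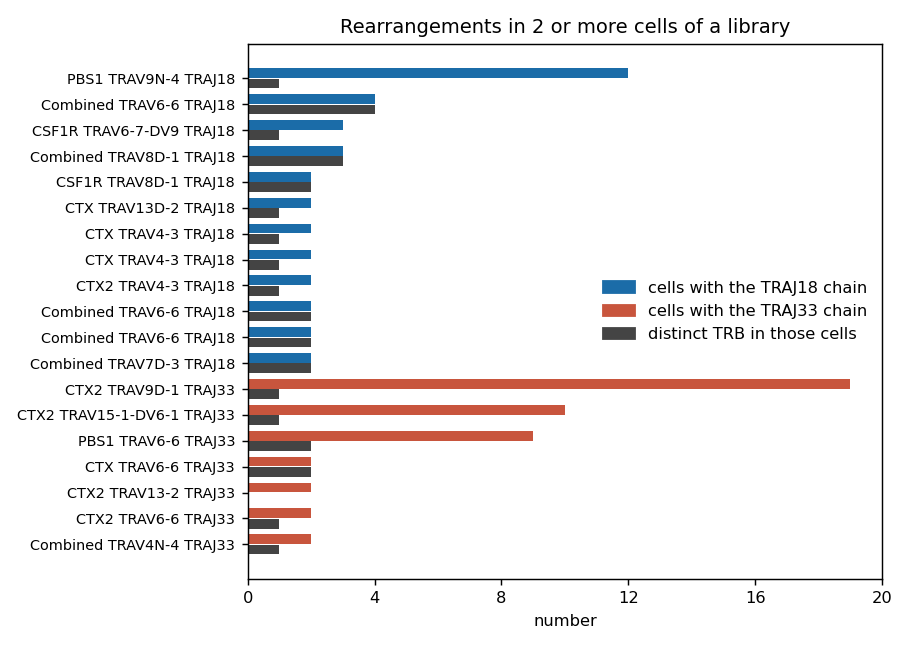
Cells and distinct TRB (number, x axis) of the 19 TRAJ18 and TRAJ33 rearrangements found in 2 or more cells of a library (y axis, library and V gene). The chains with 9 to 19 cells in CTX2 and PBS1 have 1 or 2 TRB, and the TRAJ18 chains of Combined have as many TRB as cells.

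A second productive TRA was common, as it is for alpha chains in general. It was present with 71 of 279 TRAJ18 cell-chains (25.4%) and 69 of 197 TRAJ33 cell-chains (35.0%), against 29.4% of other TRA. For TRAJ18 the mean per rearrangement was 26.3% in Combined, 31.3% in CTX, 37.5% in CTX2, 22.2% in CSF1R, 37.5% in PBS2 and 40.0% in PBS1. It was above other TRA in 3 of 6 libraries, by 3.60 points ± 8.25 (SD, n = 6; means 32.5% and 28.9%; exact sign-flip permutation test, p = 0.375, adjusted 0.679). Of the TRAJ genes 18.4% were called, 10.5% higher and 7.89% lower.

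For TRAJ33 it was 31.6% in Combined, 50.0% in CTX, 23.3% in CTX2, 33.3% in CSF1R, 33.3% in PBS2 and 50.0% in PBS1. It was above other TRA in 5 of 6 libraries, all but CTX2, by 8.09 points ± 11.3 (SD, n = 6; means 36.9% and 28.9%; exact sign-flip permutation test, p = 0.156, adjusted 0.495). In the libraries without and with the JR prefix the difference was 13.7 and -3.09 for TRAJ33, and 4.69 and 1.42 for TRAJ18. With each cell counted it was 19.0 for TRAJ33, higher in all libraries (exact sign-flip permutation test, unadjusted p = 0.03125), and turned to -0.501 for TRAJ18. The TRAJ33 difference in CTX2 was -6.91 by rearrangement, and all 10 cells of its TRAV15-1-DV6-1 clone had a second TRA. In cells with exactly 2 TRA, the TRAJ18 chain had fewer UMIs than its partner in 19 of 65 (29.2%) and the TRAJ33 chain in 26 of 64 (40.6%), against 43.9% for other TRA. No cell held both a TRAJ18 and a TRAJ33 chain, none held such a chain beside an invariant one, and 3 held 2 TRAJ18 chains. A second TRA was counted by V gene and CDR3. The 2 cases of 1 TRAJ18 CDR3 with differing TRAV calls in the same cell thus count as having one.

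A few of the chains recurred between libraries. By V gene and CDR3 residues, 6 of 241 TRAJ18 chains (2.49%, interval 0.919 to 5.34) and 3 of 155 TRAJ33 chains (1.94%, interval 0.401 to 5.55) were found in 2 or more libraries, against 202 of 8560 other TRA chains (2.36%, interval 2.05 to 2.70). By this share TRAJ18 was the 12th and TRAJ33 the 20th of 43 TRAJ genes, and the share of other TRA lay within both intervals.

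The widest of these was the TRAV8D-1-TRAJ18 chain, found in 4 of 6 libraries in 7 cells with 7 different TRB of 5 TRBV genes. Its form with the whole J end lay in Combined, CTX and CSF1R, and CTX2 held the same residues in another form. The other chains with 1 nucleotide form in 2 libraries joined TRAJ18 to TRAV12D-2, TRAV7D-2 and TRAV9N-4, and TRAJ33 to TRAV7D-2. TRAV13-1-TRAJ18 recurred with 2 different loops, of 3 and 2 nucleotide forms, and TRAV16N-TRAJ33 and TRAV6-7-DV9-TRAJ33 with 2 forms each. The TRAV7D-2 chains are shown with the second TRAV8D-1 form because the same V end, tgtgcagcaagc, met the whole TRAJ18 end and the TRAJ33 end without its first base.
CTX2, TRAV8D-1-TRAJ18, second form: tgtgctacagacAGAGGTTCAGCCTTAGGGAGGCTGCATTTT
Combined and CTX, TRAV7D-2-TRAJ18: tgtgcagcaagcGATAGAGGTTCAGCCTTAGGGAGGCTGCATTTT
Combined and CTX2, TRAV7D-2-TRAJ33: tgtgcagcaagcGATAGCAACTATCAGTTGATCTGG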

How the data were processed

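The labels' protocols name a droplet 5′ kit and a mouse T cell receptor enrichment kit, and Cell Ranger 3.0.2 with builds mm10 and GRCm38 was used by the authors, per the submitters' processing notes. The deposited table lists receptor contigs with the authors' read and UMI counts, which are whole and not normalized, and with cell calls, genes, CDR3 and clonotypes, all taken as deposited. Contig lengths were deposited in bases. Of 11 library names, a number in a sample's title placed 6. The other 5 were not used, nor were the expression matrices.

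No UMI minimum was set, and doublets were kept. Each rearrangement counted once per library, and its TRB was that with the most UMIs in its cells. For CDR3 length, TRAV order, TRBV13 use, sharing between cells and a second TRA, the difference from all other TRA was taken within each library and tested by exact sign-flip permutation, two-sided, over 6 libraries. Every TRAJ gene present in all libraries was tested the same way. A gene was called where all libraries moved the same way, which gives the smallest exact permutation p of 0.03125, and the share of genes called is given as background. Adjusted p-values are by Benjamini-Hochberg over the TRAJ genes. Nothing in the labels says that the libraries came from separate animals, so the p-values measure only the spread between libraries, which may be technical.

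The J end was extended from the 3′ end of CDR3 while at least 20 chains and 50% of them shared the next base. No germline J sequence was used, so the end is set by this cutoff and may stop short of the gene's own bases. Gene positions came from a RefSeq table of GRCm38.p6, an assembly of another strain, in which all 77 TRAV and 43 TRAJ names matched. A count of 0 is given with a limit of 3 counts of the total.

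The genes, lists and rearrangements were chosen with earlier results of these data known. Named are the 5 commonest TRAV and TRBV partners of each J gene, the usual NKT and MAIT partners, the J genes next to and most like each in TRAV use, rearrangements in 3 or more cells or in 2 or more libraries, and the longest and shortest. TRBV20 by library and the forms of TRAV4-3 and of the CTX2 TRB were chosen after their values were seen. The alternatives tried were high-confidence contigs only, at least 2 UMIs, each cell counted, possible doublets left out, libraries left out in turn, library number prefixes apart and other definitions of a clone. The length test was tested on simulated data, with loop lengths shuffled within libraries in 20 draws. A change of 1 residue planted in TRAJ18 was recovered as 1.00 and called in 17. One of 3 residues planted in TRAJ33 was called in 20, and 3.16% of the tests of unchanged genes, over 38 TRAJ genes, were called. No change as small as that seen for TRAJ33 was planted in it, so how often the test would call one is not known. The software was matplotlib 3.10.9, pandas 2.3.3, scipy 1.17.1, numpy 2.4.6 and Python 3.11.15.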

Additional observations from a re-analysis of the deposited data

Results flagged for a closer look

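TRAJ33 outside TRAV1 made up 2.90% of TRA rearrangements in CTX2, apart from the other 5 libraries: its gap to the next library was 0.814 of the whole range, above Dixon's limit of 0.625. This rule takes no account of counting error, and the interval of CTX2 (1.63 to 4.73) overlapped those of the other 5. The excess of a second TRA with TRAJ18 was 7.58 points in CTX2, apart from the other treated libraries (gap 0.848 of the range, limit 0.829). Of 24 groups examined in this way 2 stood out, and chance gives about 1 in 20.

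TRAJ18 partners lay -8.15 positions along the TRAV locus in the treated libraries relative to PBS1, each set against other TRA of the same library. All 4 treated libraries lay below their other TRA and PBS1 above, and this difference was not tested.

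In barcodes that were not called cells, TRAJ18 outside TRAV11 made up 2.08% of productive TRA contigs (21 of 1011, interval 1.29 to 3.16) and TRAJ33 outside TRAV1 1.98% (20 of 1011, interval 1.21 to 3.04), where a count of 0 would allow 0.297%. In called cells they made up 2.70% and 1.68% of TRA rearrangements, a share of rearrangements and not of contigs. Of these, 8 TRAJ18 and 12 TRAJ33 contigs matched a rearrangement of a called cell in the same library.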

How the results depend on the processing

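Of 188 alternatives over 19 results 169 kept the direction and the call or moved by less than the spread, and 75 of the 86 that leave out no library did. The 102 that leave out a library in turn cannot undo a call or move a mean share by its spread. Number prefixes apart were judged by the spread alone, so some of the 169 changed sign. In the JR libraries the TRAJ33 difference was -2.97 for TRBV13 use and -3.09 for a second TRA, against 22.1 and 8.09 in all. No paired analysis of treatment was possible, with PBS1 as the single untreated library and replicate numbers that only count samples within a group. With each cell counted, TRAJ18 differences turned for TRBV13 use (3.20 points), sharing between cells (-1.30) and a second TRA (-0.501), the loop differences no longer had the smallest unadjusted p (0.720 residues for TRAJ18 against other TRA, 1.05 for TRAJ18 against TRAJ33), and TRAJ33 differences reached it for TRBV13 use (23.8) and a second TRA (19.0). Counting cells weighs a clone by its size. With PBS2 as untreated the treated minus untreated TRAJ18 share was 0.00845. Without possible doublets the TRAJ18 TRAV position was -1.33. By deposited clonotype or with the same TRB the shared rearrangements were 10 and 10 in place of 19. The causes were not tested.

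With each library left out in turn, TRAJ18 minus other TRA ranged from -0.869 to 1.07 positions (below 0 without PBS2 or PBS1), from -8.14 to 1.68 points for TRBV13 use (above 0 without CTX2), from 2.35 to 5.52 for sharing (all libraries the same way without PBS2), from 1.29 to 5.27 for a second TRA and from 0.760 to 0.868 residues. The TRAJ18 productive minus nonproductive share ranged from -1.12 to 0.214 (above 0 without CTX or CTX2). TRAJ33 minus other TRA ranged from 11.9 to 28.2 for TRBV13 use and from 4.71 to 11.1 for a second TRA (all the same way without CTX2 in both), from 2.74 to 11.9 for sharing (2.74 without PBS1), from 3.23 to 11.4 positions and from -0.891 to -0.582 residues, and its productive minus nonproductive share from -1.81 to -0.632. TRAJ18 minus TRAJ33 loops ranged from 1.31 to 1.72 residues and TRAV positions from -12.0 to -2.28. The shares ranged from 2.50% to 2.95% and from 1.47% to 1.78%, and the shared rearrangements from 13 to 19, an alternative chosen after seeing the data. PBS1, PBS2, CTX and CTX2 hold 2 to 16 chains of each J gene, which limits every value of theirs.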
